A study of Mus musculus with 8 samples.

Results

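Measured in T cells were 10 genes of the interferon system: the receptor chains of type I interferon (IFNAR1 and IFNAR2) and of interferon gamma (IFNGR1 and IFNGR2), and the interferon regulatory factors IRF1, IRF2, IRF3, IRF7, IRF8 and IRF9. They were picked by name as the receptor chains and IRF factors of the pathway, and all 10 were found among the 46625 gene names of the count table, which gives mouse symbols in capitals. All 10 passed the filter on low counts. The libraries came from 8F10 T cells, which carry a transgenic receptor for an insulin peptide and lack the endogenous T cell receptor alpha chain. Stem cells from the bone marrow of such mice (CD45.2), stripped of T and B cells, were placed in NOD hosts or B16A hosts (CD45.1 in both cases) that had been irradiated below the lethal dose, so the hosts kept cells of their own. NOD mice make native insulin, and B16A mice are NOD animals whose insulin B chain has an exchanged residue. Both hosts carry the strain label NOD/ShiLtJ. The 8F10 cells were sorted from inguinal lymph nodes 6 weeks later. The comparison addresses whether T cells that met native insulin peptides differ from T cells that did not. There were 4 libraries per host, numbered by batch, with 1 library of each host in each of 4 batches. The labels give no age of the mice and do not say how many mice went into a library, nor that libraries came from separate mice.

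Type I interferons bind a receptor of IFNAR1 and IFNAR2, whose kinases TYK2 and JAK1 phosphorylate STAT factors, among them STAT2. These join IRF9 in a complex that switches on genes with an interferon-stimulated response element (ISRE). Interferon gamma binds IFNGR1, and IFNGR2 brings the second kinase. Its signal acts on gamma-activated sites (GAS), as in the gene of IRF1. IRF2 binds the same elements as IRF1 and opposes it at many genes. IRF3 and IRF7 act before interferon is made: sensors of nucleic acid activate them and they turn on the interferon genes, while IRF7 is itself induced by interferon. IRF8 is best known from B cells, dendritic cells and macrophages. In T cells the IFNGR2 chain is known to be scarce.

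The genes lie on 6 chromosomes (mm10). IFNAR2 (91372783 to 91405589), IFNAR1 (91485238 to 91507441) and IFNGR2 (91547072 to 91565623) stand on chromosome 16 with IL10RB, a chain shared by the IL-10 and interferon lambda receptors, within 193 kb. IFNGR1 lies on chromosome 10 (19591949 to 19610229). IRF1 lies on chromosome 11 (53770014 to 53778374), IRF9 on chromosome 14 (55603571 to 55610030), and IRF3 (44997648 to 45002848) and IRF7 (141262706 to 141266481) on chromosome 7. IRF2 (46739732 to 46847458) and IRF8 (120736358 to 120756694) lie on chromosome 8.

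The upstream sequences were searched for the elements through which interferon acts, because several of these genes are themselves interferon targets. The windows were the 250 bases before each start in the RefSeq promoters of GRCm38.p6 (the assembly mm10 denotes). All 10 genes had at least 1 window. The letters searched on both strands were TTCNNNGAA for GAS and GAAANNGAAA for ISRE. The GAS letters stood upstream of IRF1, IRF2, IRF8 and IFNAR2, 4 of 10 genes, against 8.13% of the 27025 genes with a promoter. ISRE letters stood upstream of IRF2 alone of the 10, against 3.46% of genes. The stretches below are written 5′ to 3′ in the direction of the gene, all on the plus strand, with the matching letters in capitals.
IRF1, GAS (chr11:53769904-53769952): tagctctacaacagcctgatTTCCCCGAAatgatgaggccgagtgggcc
IRF8, 2 GAS matches (chr8:120736167-120736233): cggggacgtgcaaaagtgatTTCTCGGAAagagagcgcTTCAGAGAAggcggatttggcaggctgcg
IRF2, ISRE (chr8:46739495-46739533): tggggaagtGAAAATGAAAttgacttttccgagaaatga
IRF2, GAS (chr8:46739501-46739549): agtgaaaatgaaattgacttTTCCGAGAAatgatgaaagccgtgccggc
IFNAR2, GAS (chr16:91372549-91372597): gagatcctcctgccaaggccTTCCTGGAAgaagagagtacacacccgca
The IRF1 match began 90 bases before the start, the first of the IRF8 pair 171 bases and the IFNAR2 match 214 bases. A match of letters is a description and not a measured binding site. The other 6 genes had neither set of letters in these windows, which says nothing of elements elsewhere or with other letters.

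Total counts ran from 4896593 to 6137666 per library in batches 1 to 3, while batch 4 had 28301805 (NOD) and 28094237 (B16A). Between 0.0889% and 0.121% of the counts fell on the 10 genes in batches 1 to 3, against 0.237% and 0.243% in batch 4. The batch 4 libraries differed from the rest in breadth too, with 19751 and 20723 genes detected against 29729 to 33175. CD4 T cell genes were present in every library, with a summed level of 3087 to 11492 CPM (a gene's share of its library's counts, at TMM-adjusted library sizes) over 7 markers. The sorted cells could hold traces of other cells that use these factors. B cell markers summed to 2.20 to 23.4 CPM in NOD and 2.98 to 11.4 CPM in B16A hosts over 7 genes. Markers of plasmacytoid dendritic cells summed to 9.68 to 53.5 and 8.42 to 34.8 CPM over 5 genes, and 4 of those 5 were at 0 in batch 4. Conventional dendritic cell markers (6 genes) summed to 3.77 to 55.4 CPM, monocyte and macrophage markers (7 genes) to 5.66 to 65.4 CPM, natural killer markers (4 genes) to 1.80 to 6.24 CPM and CD8A with CD8B1 to 65.3 to 186 CPM. In batch 4, 3 of the 6, 1 of the 7 and 1 of the 4 were at 0, and no B cell or CD8 marker was.

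No interferon receptor chain or IRF factor passed the test between the hosts. Estimates are given as NOD minus B16A on the log2 scale, with their standard error (SE). IFNAR1, IFNAR2 and IRF8 were lower in the NOD library of all 4 batches, and their estimates were -0.25, -0.47 and -0.37 in the fit of 4 against 4 libraries. The edgeR quasi-likelihood test called 0 of the 10 (every adjusted p = 0.9999), and it called 0% of the 14607 genes tested. None of the 10 reached an unadjusted p under 0.05 in that fit, and 34 of the 14607 genes did. Differences between batches count as spread there, so its p-values say little about the hosts. The SE of IFNGR2 was 1.33 in that fit and 0.14 with a batch term. DESeq2 and limma voom with quality weights called none of the 10 with or without batch in the model. DESeq2 gave no adjusted p for IFNGR2 and IRF1 without batch and for IFNAR2 and IRF8 with it, so these could not be called there. With batch as a term, which takes out differences between batches, edgeR called 0 of the 10 and 0% of all genes. In that fit 1 of the 10, IFNAR2, had an unadjusted p under 0.05, as did 857 of the 14607 genes. With both batch 4 libraries left out and batch in the model, edgeR called 0.204% of 15716 genes and again 0 of the 10.

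Each batch holds 1 library of either host, so direction was also read batch by batch. In batches 1 to 4, 6, 8, 6 and 6 of the 10 genes had the lower value in NOD. Their median log2 ratio was -0.05, -0.18, -0.06 and -0.09. Over all tested genes 50.0%, 46.6%, 52.0% and 46.9% were lower, with medians of 0.00, 0.05, -0.03 and 0.00. Lower in NOD hosts in all 4 batches were 3 of the 10, against 6.85% of all tested genes, and higher in all 4 were 0 of the 10, against 7.43%. Tested genes with 0 counts in both batch 4 libraries have a ratio of 0 there and can enter neither share. The 10 genes all had counts in batch 4, so the shares are not fully alike. The groups overlapped for each of the 10, whereas 0.596% of all tested genes had groups that did not. The median log2 fold change of the 10 was -0.15 in the fit without a batch term, beside 0.03 over all tested genes. It took either sign when single libraries were left out, from -0.43 without the NOD library of batch 4 to 0.21 without the B16A library of batch 4. These fits have no batch term, and without a batch 4 library they hold that batch in 1 host only. With batch in the model and batches 1 to 4 left out in turn, the median was -0.12, -0.10, -0.10 and -0.14.

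**Figure D1:**
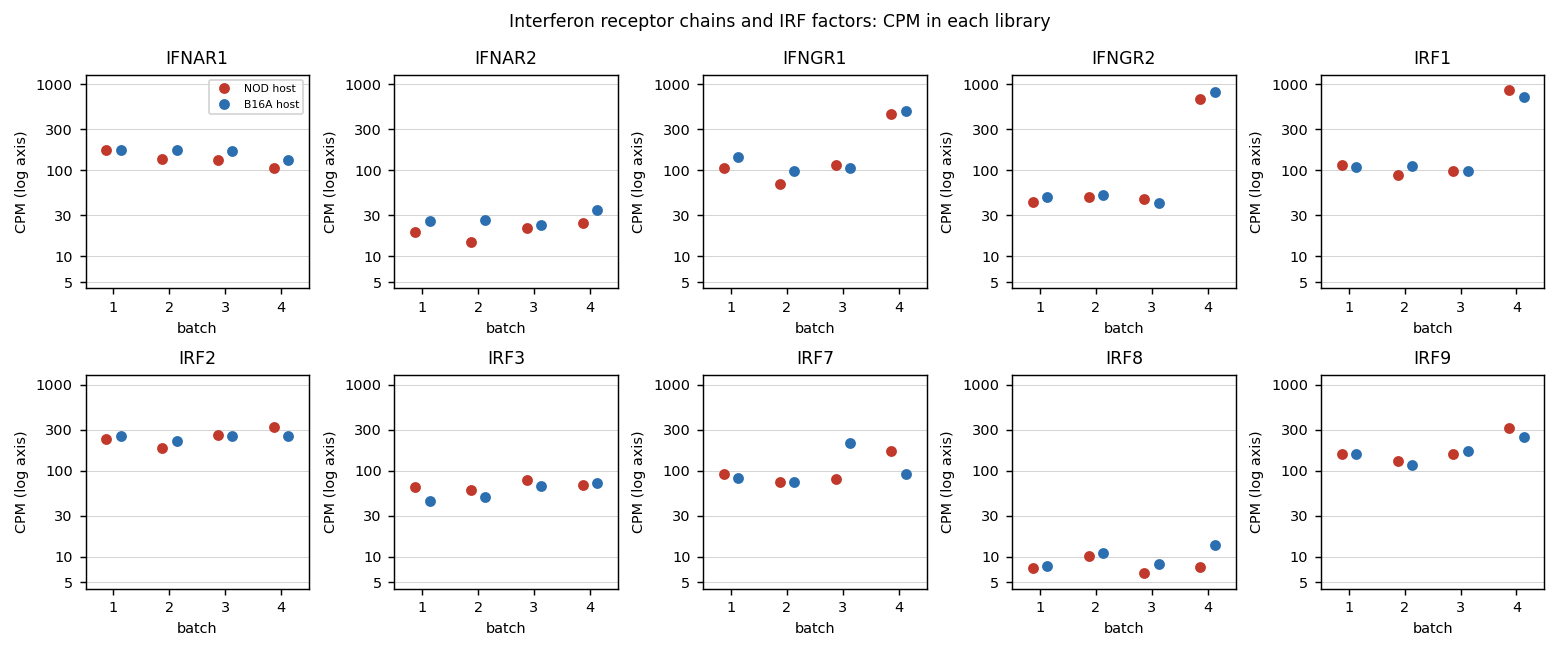
CPM (log axis) of the 10 genes in each library by batch, where red points are NOD and blue points B16A libraries (each point is 1 library and has no error bar). IFNGR1, IFNGR2 and IRF1 are several times higher in both batch 4 libraries, and IRF7 reaches 207 CPM in the B16A library of batch 3.

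IFNAR1, the chain that carries TYK2, stood at 171, 137, 131 and 107 CPM in the NOD libraries of batches 1 to 4 and at 174, 174, 168 and 132 CPM in the B16A libraries. The NOD library was the lower of each pair, by almost nothing in batch 1. The log2 ratios were -0.03, -0.34, -0.36 and -0.30. The means were 137 ± 26.4 and 162 ± 20.3 CPM (SD, n = 4 each), and the estimate was -0.25 (SE 0.24). The batch term left it at -0.26 (SE 0.13) with an adjusted p of 0.875 in edgeR.

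IFNAR2, the chain that carries JAK1 and binds interferon most tightly, had the smallest p of the 10. It stood at 18.9, 14.8, 21.2 and 24.3 CPM in NOD libraries and at 26.0, 26.7, 23.3 and 34.2 CPM in B16A libraries. The groups overlapped through the NOD library of batch 4, which lay above the B16A library of batch 3, and the NOD library was lower in each pair. The within-batch log2 ratios were -0.46, -0.84, -0.13 and -0.49. The means were 19.8 ± 4.01 and 27.5 ± 4.64 CPM (SD, n = 4 each), and the estimate was -0.47 (SE 0.27; edgeR, unadjusted p = 0.111). With the batch term it was -0.48 (SE 0.20) and the unadjusted p in edgeR 0.0301, which adjusted over all genes became 0.833. IFNAR2 counts were low, 79 to 171 reads in batches 1 to 3, and 315 of its exonic bases also belong to another gene model, GM21970, which had 0 counts in every library.

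IFNGR1, the chain that binds interferon gamma, stood at 106, 69.6, 114 and 453 CPM in NOD and at 142, 98.8, 105 and 487 CPM in B16A libraries. The batch 4 libraries of both hosts were the highest. The log2 ratios of -0.43, -0.50, 0.12 and -0.10 did not share a sign. The estimate was -0.17 (SE 0.75), and -0.23 (SE 0.14) with the batch term (edgeR, adjusted p = 0.917).

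IFNGR2, the signalling chain for interferon gamma, showed the widest range of the 10 as a fold between libraries. It stood at 42.7, 48.4, 46.1 and 681 CPM in NOD and at 49.0, 51.3, 41.4 and 820 CPM in B16A libraries. Within batches 1 to 3 the 6 libraries lay between 41.4 and 51.3 CPM whatever the host. The log2 ratios were -0.20, -0.08, 0.15 and -0.27, and the estimate with the batch term was -0.10 (SE 0.14; edgeR, adjusted p = 0.966). Without that term it was -0.23 with an SE of 1.33. There its estimate moved from -2.46 without the NOD library of batch 4 to 2.17 without the B16A library of batch 4. The corresponding values were -1.15 and 0.72 for IFNGR1 and -1.41 and 1.51 for IRF1, and those fits hold batch 4 in 1 host only.

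Neither IRF1 nor IRF2, which share binding elements, separated the hosts. IRF1, an activator induced by interferon gamma, stood at 115, 87.5, 98.2 and 870 CPM in NOD libraries and at 108, 112, 99.2 and 711 CPM in B16A libraries. As with IFNGR2, batches 1 to 3 were close together and batch 4 was high in both hosts. The estimate was 0.19 (SE 0.99), and 0.01 (SE 0.14) with the batch term. IRF2, its antagonist, stood at 236, 185, 259 and 318 CPM in NOD and 252, 224, 249 and 255 CPM in B16A libraries. The lowest library was the NOD library of batch 2 and the highest that of batch 4. The estimate was 0.03 (SE 0.24), and 0.00 (SE 0.14) with the batch term (edgeR, adjusted p = 0.998 for both genes).

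IRF9, a DNA-binding partner of STAT2, stood at 156, 128, 154 and 310 CPM in NOD and at 155, 117, 167 and 249 CPM in B16A libraries. The 2 hosts were nearly equal in each of the first 3 batches, with log2 ratios of 0.00, 0.13 and -0.12, and the NOD library was higher in batch 4 (0.32). The estimate was 0.12 (SE 0.37), and 0.09 (SE 0.13) with the batch term (edgeR, adjusted p = 0.975). IRF9 shares 123 exonic bases with RNF31 on the same strand, so reads there could have been counted for either gene or left out.

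IRF7, the factor that amplifies type I interferon production, varied most between partners of a batch. It stood at 90.9, 73.7, 80.9 and 168 CPM in NOD libraries and at 82.7, 74.3, 207 and 91.5 CPM in B16A libraries. The B16A library of batch 3 and the NOD library of batch 4 were high, and the other 6 lay between 73.7 and 91.5 CPM. The log2 ratios of 0.14, -0.01, -1.35 and 0.88 had a standard deviation of 0.93, against 0.15 to 0.37 for the other 9 genes. The estimate was -0.14 (SE 0.43), and -0.07 (SE 0.29) with the batch term (edgeR, adjusted p = 0.998). Its sign turned with batch 3: with that batch left out and batch in the model the estimate was 0.34, and without the B16A library of batch 3 and no batch term it was 0.32.

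IRF3, which is present before infection and is activated by phosphorylation, was alone among the 10 in having a positive estimate in all 22 alternative fits. It stood at 64.9, 59.3, 77.6 and 67.7 CPM in NOD and at 44.8, 48.8, 66.3 and 71.8 CPM in B16A libraries. The NOD library was higher in batches 1 to 3, with log2 ratios of 0.53, 0.28 and 0.23, and slightly lower in batch 4 (-0.08). The means were 67.4 ± 7.68 and 57.9 ± 13.2 CPM (SD, n = 4 each), and the estimate was 0.22 (SE 0.25). Leaving batch 4 out, with batch in the model, gave 0.35 (SE 0.16; edgeR, unadjusted p = 0.0406, adjusted p = 0.570). IRF3 shares 88 exonic bases with BCL2L12 on the other strand.

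IRF8 was the scarcest of the 10, at 7.40, 10.3, 6.37 and 7.53 CPM in NOD and 7.76, 10.9, 8.25 and 13.8 CPM in B16A libraries. The groups overlapped, and the log2 ratios were -0.07, -0.09, -0.36 and -0.86. The estimate was -0.37 (SE 0.34; edgeR, unadjusted p = 0.304). In batches 1 to 3 these values rest on 39 to 70 reads per library. B cell markers summed to 23.4 CPM in the NOD library of batch 2, the highest of all libraries, and IRF8 was the highest of the NOD libraries there. In batch 4 the B cell sums were 2.20 and 2.98 CPM, while IRF8 stood at 7.53 and 13.8 CPM. The part of other cells in the IRF8 level was not tested. In bulk libraries fewer cells of a type and less RNA per cell cannot be told apart.

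**Figure D2:**
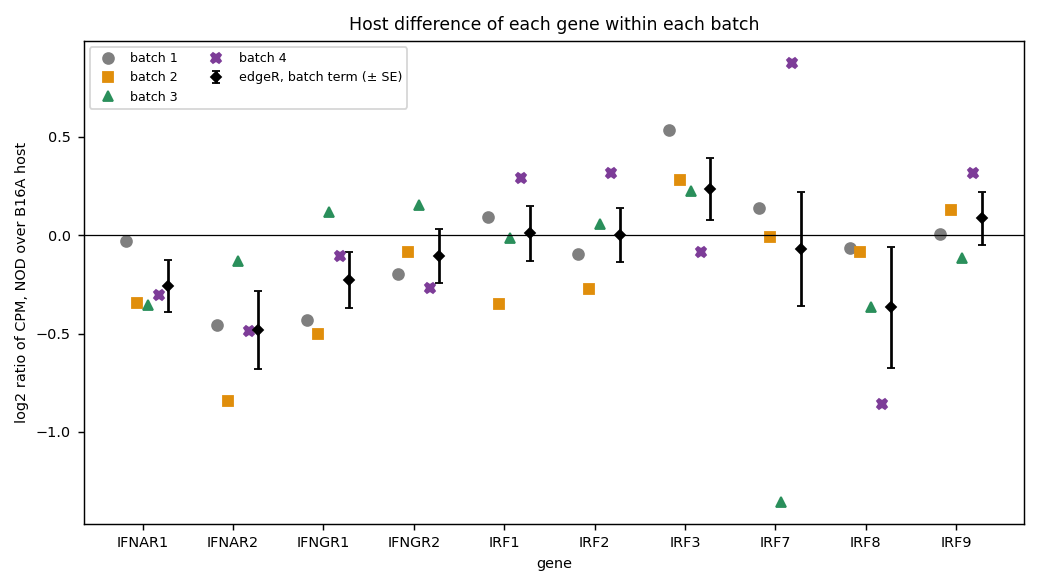
Ratio of CPM between hosts (log2, NOD over B16A) of each gene within each batch (1 marker per pair of libraries), and the edgeR fold change with batch as a term with its SE (black diamonds). IFNAR1, IFNAR2 and IRF8 lie below 0 in all 4 batches, and IRF7 spans -1.35 to 0.88.

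Levels were compared between genes per kilobase of merged exons (GENCODE vM21), over the 6 libraries of batches 1 to 3. IFNGR1 was highest on average, at 37.2 CPM per kb, followed by IRF2 at 31.7. IRF9 (27.2), IRF7 (26.9), IFNAR1 (26.8) and IRF1 (26.0) lay close together. The ranges over libraries of all these genes overlapped, with 24.4 to 50.0 for IFNGR1 and 25.0 to 35.1 for IRF2. IRF7 ranged from 19.5 to 54.8, with the B16A library of batch 3 at the top. IRF3 (17.5), IFNGR2 (12.3), IFNAR2 (6.56) and IRF8 (1.20) followed. IFNGR2, at 11.0 to 13.6 CPM per kb, did not overlap with IFNGR1, at 24.4 to 50.0, nor did IFNAR2, at 4.44 to 8.02, with IFNAR1, at 22.1 to 29.3. In batch 4 the order changed: IFNGR2 (199), IRF1 (199) and IFNGR1 (165) led, ahead of IRF9 (51.9) and IRF2 (38.7). Merged exons cover all isoforms of a gene, so a gene with a long rare exon is understated.

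At least 2-fold higher in batch 4 were 3 of the 10 genes, a share near that of all tested genes (25.5%). The mean CPM of its 2 libraries was 16.1 times that of batches 1 to 3 for IFNGR2, 7.66 times for IRF1 and 4.43 times for IFNGR1. The shares of all tested genes in this paragraph rest on the difference of mean log2 CPM instead. That difference was 4.01 for IFNGR2, 2.93 for IRF1 and 2.18 for IFNGR1. By it 0.952% of all tested genes lay above IFNGR2, 4.40% above IRF1 and 9.82% above IFNGR1. The other 7 genes differed by less than 2-fold, from 0.749 times for IFNAR1 to 1.91 times for IRF9. Over all tested genes 37.7% were at least 2-fold lower in batch 4. Depth and labelled batch cannot be told apart here, and no test was run between batches.

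Ratios of 2 genes within a library need no scaling between libraries. The ratio of IRF1 to IRF2, activator to antagonist, was 2.74 and 2.79 in batch 4, against 0.379 to 0.498 in the other batches. Its log2 value differed by 0.00 between hosts (exact two-sided permutation test over 70 arrangements, 4 against 4 libraries, p = 1.0). The ratio of IFNGR1 to IFNGR2 was 0.664 and 0.594 in batch 4, against 1.44 to 2.90 elsewhere, so their order by counts turned over. Its host difference was -0.13 (exact permutation p = 0.771). The ratio of IFNAR1 to IFNAR2 was 8.99, 9.23, 6.16 and 4.40 in NOD and 6.68, 6.50, 7.19 and 3.86 in B16A libraries, a log2 difference of 0.22 (exact permutation p = 0.543). The ratio of IRF7 to IRF3 was 1.40, 1.24, 1.04 and 2.48 in NOD and 1.85, 1.52, 3.12 and 1.27 in B16A libraries. It was lower in the NOD library of batches 1 to 3 and higher in that of batch 4, and its log2 difference was -0.33 (exact permutation p = 0.429). All 4 ratios had an adjusted p of 1.0, and the smallest p that 4 against 4 libraries can give is 0.0286. A lone ratio at that smallest p would still miss the threshold after adjustment over the 4 ratios. These arrangements also ignore the pairing by batch. An exact sign-flip test of the within-batch differences gave p of 0.375 or more for each ratio. Its smallest possible p is 0.125, above the threshold. Neither test could therefore have called a lone ratio, and the lack of calls does not show equal ratios.

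**Figure D3:**
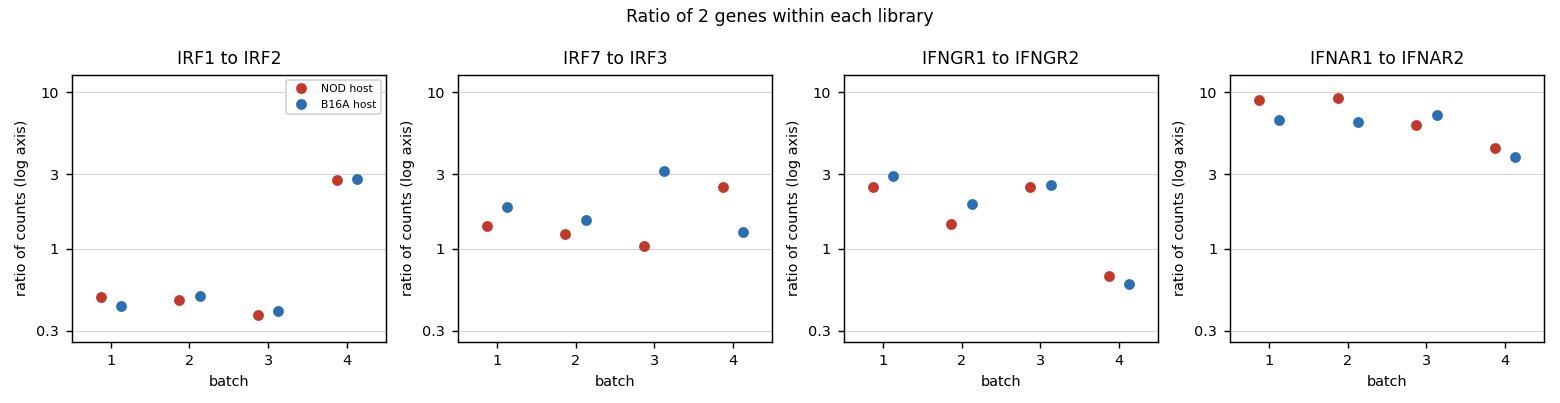
Ratio of counts of 2 genes within each library (log axis) by batch, with NOD libraries in red and B16A libraries in blue (each point is 1 library and has no error bar). IRF1 exceeds IRF2 and IFNGR2 exceeds IFNGR1 in batch 4 alone, in both hosts.

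Other parts of the pathway were read from lists in the same fit, and edgeR called 0 of their tested genes in either direction. Of 21 interferon genes none passed the count filter. IFNG, made by activated T cells, stood at no more than 1.46 CPM, and 20 of the 21 had 0 counts in batch 4. The exception was IFNK, a type I interferon of skin, at 6.54 and 7.79 CPM in batch 4. Of the receptor kinases, STAT factors and brakes all 11 were tested, 7 with a negative estimate, and the median was -0.10. That median was -0.43 without the NOD and 0.22 without the B16A library of batch 4, in fits with no batch term. With the batch term it was -0.08. STAT2 averaged 62.9 ± 20.7 CPM (NOD) and 79.4 ± 24.5 CPM (B16A; SD, n = 4 each), with an estimate of -0.33 (SE 0.33), and its log2 ratios by batch were -0.26, -0.76, -0.88 and 0.51. Of the nucleic acid sensors and kinases upstream of IRF3 and IRF7 all 14 were tested, 8 with a negative estimate, and the median was -0.04 (-0.22 without the B16A library of batch 4). The RNA sensors DDX58 (-0.35, SE 0.24) and IFIH1 (-0.54, SE 0.42) had the smallest p. Other receptor chains and IRF factors had a median of 0.04 over 8 genes. Among them IL10RB had an estimate of -0.18 (SE 0.25) and IRF2BP1, a partner of IRF2, of 0.45 (SE 0.64). IRF4, induced by T cell receptor signals, reached 36.7 and 60.8 CPM in batch 4, against 6.92 to 11.0 CPM elsewhere, and its estimate was -0.48 (SE 0.83).

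Genes that these factors switch on were read from 2 lists. Of 18 tested of 20 type I interferon targets 17 had a negative estimate, with a median of -1.03, beside 0.03 over all tested genes. The list was chosen with earlier results of these data known. The median was -0.44 without the B16A library of batch 3, -1.62 without the NOD library of batch 4, and -0.36 with batch 3 left out and batch in the model. By batch, their median log2 ratios were -0.11, -1.18, -2.38 and 0.16 in batches 1 to 4. In these batches 13, 18, 18 and 7 of the 18 were lower in NOD. IRF9 had ratios of 0.13 and -0.12 in batches 2 and 3, where the targets differed most, and STAT2 had -0.76 and -0.88. IRF7 had -0.01 and -1.35 in these batches. In batch 4 IRF7 had 0.88, with 168 CPM in the NOD library, beside the targets' median of 0.16. The 20 targets summed to 1567 CPM in that NOD library, against 599 to 821 CPM in the other NOD libraries. In its B16A partner they summed to 1371 CPM. In the B16A library of batch 3 IRF7 was at 207 CPM, USP18, an interferon-induced brake, at 58.1 CPM and IFIH1 at 82.0 CPM. In the B16A libraries of batches 1 and 2, USP18 stood at 12.0 and 23.6 CPM and IFIH1 at 29.5 and 33.7 CPM. USP18 was named after its values were seen, and the other libraries are not given for USP18 and IFIH1. Whether IRF7, USP18 and IFIH1 moved together was not tested. CMPK2 (-1.92, SE 0.60) and MX1 (-2.99, SE 0.94) had the smallest p among the targets. With batch 4 left out and batch in the model CMPK2, MX2 and RTP4 were called, 3 of the 18 tested targets, against 0.204% of all 15716 genes. The list's median in that fit was -1.24, and none of the 10 receptor chains and factors was called. Of 24 targets of interferon gamma and IRF1, 16 had a negative estimate, with a median of -0.13 and medians of 0.06, -0.57, -0.64 and 0.20 by batch. With no batch term the median was -0.64 without the NOD and 0.34 without the B16A library of batch 4. Those fits hold batch 4 in 1 host only. With the batch term the median was -0.27 (18 of 24 negative). With batch 4 left out and batch in the model it was -0.42 (19 of 24 negative). GBP5 (-0.74, SE 0.40) and GBP4 (-0.42, SE 0.27), GTPases of cell defence, had the smallest p. IRF1 had ratios of -0.35 and -0.01 in batches 2 and 3.

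**Figure D4:**
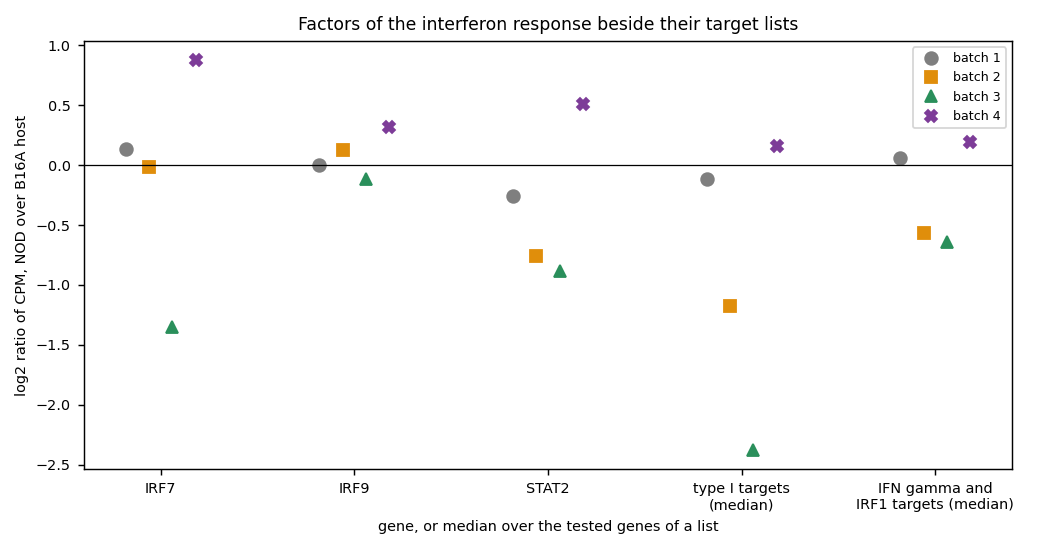
Ratio of CPM between hosts (log2, NOD over B16A) within each batch for IRF7, IRF9 and STAT2, and the median over the tested genes of the type I target list (18 genes) and the interferon gamma and IRF1 target list (24 genes). The type I targets lie at -1.18 and -2.38 in batches 2 and 3, where IRF9 lies at 0.13 and -0.12.

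T cell activation genes were checked because IRF4 and IRF8 answer T cell receptor signals. Of 13 tested genes 7 had a positive and 6 a negative estimate, with a median of 0.03 (-0.39 without the NOD library of batch 4). With the batch term it was 0.00 (6 of 13 negative), and with batch 4 also left out -0.13 (9 of 13 negative). The 15 listed genes summed to 7039 (NOD) and 5237 CPM (B16A) in batch 4, against 535 to 1469 CPM elsewhere. A single gene reached 4781 CPM in batch 4. The median log2 CPM of the tested genes was 6.46 and 6.23 there, beside 6.38 and 6.19 in batch 1. NR4A3, an early gene of receptor signalling, had the smallest p (-0.63, SE 0.64), and its log2 ratios were -0.17, -0.94, -1.41 and -0.65. NR4A2 had an estimate of 0.95 with a SE of 1.17.

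The genes most like IRF7 were found by Pearson's r of log2 CPM minus the batch mean, over 8 libraries in 4 pairs and across genes with a mean of at least 4 CPM. They were GM13012 (0.996), PAK1IP1 (0.996), GM13831 (0.992), 3110001I22RIK (0.991) and GM10499 (0.984). With so few pairs 44 genes, 0.41% of those compared, had an r above 0.95. The r to IRF7 was 0.741 for IRF9 and 0.770 for STAT2.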

How the data were processed

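RNA from 8 libraries of sorted 8F10 T cells was analysed. Per the labels' protocols it was amplified with the SeqPlex kit and read as single 50-base reads. The deposited table holds raw read counts per gene, whole numbers that the authors did not normalize. The submitters' processing notes list STAR, HTSeq, DESeq2 and the build mm10. No source used here gives versions, settings, annotation or strand use, so reads in overlapping or antisense genes are uncertain (IRF1, IRF3 and IRF7 overlap exons on the other strand).

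Counts were filtered with filterByExpr, scaled by TMM and tested by edgeR 4.0.16 (robust quasi-likelihood, R 4.3.3) with Benjamini-Hochberg adjustment over all 14607 genes tested, threshold 0.05. Standard errors come from the F statistic. Alternatives were DESeq2 1.42.0, limma 3.58.1 voom, other factors and filters, a replicate block and left-out libraries. Log2 CPM has a prior count of 2 and ratios a pseudocount of 0.5. Pairing by number rests on the batch label of each sample. Deviations from group means correlated at 0.663 to 0.877 across genes between partners, and at -0.807 to 0.717 between other libraries of the 2 hosts. The partners of batch 4 had the 0.877. The NOD library of batch 2 and the B16A library of batch 3, not partners, had 0.717. That is above the partners of batch 1 (0.672) and batch 3 (0.663), so the correlations do not tell the pairs of batches 1 to 3 apart. All pairs of libraries differed by more than sampling noise (lowest chi-square per degree of freedom 8.54). P-values measure the spread between libraries, which may be technical. GENCODE vM21 matched 42124 of 46625 names.

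All 10 genes are named. Of each list the 2 tested genes with the smallest p are named, and STAT2 and IRF4 always; 1 gene of that rule is not reported here. IFNG, IFNK, USP18, MX2 and RTP4 were named after their values were seen. Members and lists were chosen with earlier results of these data known.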

Additional observations from a re-analysis of the deposited data

Results flagged for a closer look

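Of 28 sets of 4 libraries (10 genes and 4 ratios in each host), 9 had a library far from its group, and 8 of these were batch 4 libraries. Chance alone gives about 1 in 20 such sets when the sets are independent. These are not, because the ratios reuse the 10 genes and all sets come from the same libraries. The count of 9 was therefore not tested against that rate. IFNGR2 stood at 681 CPM in the NOD library and 820 CPM in the B16A library of batch 4, and IRF1 at 870 and 711 CPM. The ratio of IRF1 to IRF2 was 2.74 and 2.79 in these libraries. In the B16A library of batch 4 IFNAR1 was low at 132 CPM and the ratio of IFNAR1 to IFNAR2 was low at 3.86. The remaining case was IRF2 in the B16A library of batch 2, at 224 CPM beside 249 to 255 CPM in its group.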

How the results depend on the processing

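Over 22 alternative fits none of the 10 genes was called, and the lowest adjusted p was 0.534 (IFNAR1, DESeq2 with the replicate block). DESeq2 gave no adjusted p for IFNAR2 and IRF8 with the block and for IFNGR2 and IRF1 without it. IFNAR1, IFNAR2, IRF3 and IRF8 kept their sign in all of them. Of the 220 estimates of all 10 genes 29 turned sign, and all 29 came from the other 6 genes. The replicate block (batch as a term) moved the median of the 10 from -0.15 to -0.089 in edgeR and to -0.079 in DESeq2, and upper-quartile factors moved it to -0.23. Over all genes, the edgeR fit with 0 calls gave way to 23 higher and 4 lower in DESeq2 with the block, 8 and 1 in limma voom with the block, and 25 and 7 in edgeR with batch 4 left out and the block. IRF1 turned to -0.079 without batch 4, and with the block to -0.030 without batch 1 and -0.087 without batch 4. IRF2 turned to -0.035 with upper-quartile factors, -0.051 in voom, -0.035 in voom with the block, -0.088 without batch 4, and with the block to -0.014 without batch 3 and -0.10 without batch 4. IRF7 turned to 0.34 without batch 3 with the block. IRF9 turned to -0.016 in voom and -0.0012 without batch 4. Leaving out single libraries, the median of the 10 ranged from -0.43 to 0.21, IFNGR1 from -1.15 to 0.72, IFNGR2 from -2.46 to 2.17, IRF1 from -1.41 to 1.51, IRF2 from -0.13 to 0.15, IRF7 from -0.49 to 0.32 and IRF9 from -0.26 to 0.38. The log2 ratio difference ranged from -0.65 to 0.67 for IRF1 to IRF2 and from -0.64 to 0.28 for IFNGR1 to IFNGR2. The fits with single libraries left out have no batch term, and without a batch 4 library they hold that batch in 1 host only. The cause of these changes was not tested. Counts of 39 to 70 reads limit IRF8 in batches 1 to 3.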
